A study of Mus musculus with 8 samples.

Results

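Transcripts of 32 chaperone and protein folding stress genes were examined in the medial prefrontal cortex of mice 1 h after contextual fear conditioning. The genes were taken by name from the deposited table, which has 22609 gene rows, and all 32 were found there. They form a set of 15 cytosolic and mitochondrial chaperones and a set of 17 genes of the endoplasmic reticulum (ER) and its unfolded protein response. The conditioned group held 4 biological replicates, in which mice explored a chamber for 3 min, received 2 foot shocks (0.8 mA, 2 s, 30 s between them) and stayed 15 s longer. The context control group held 4 biological replicates that had the same handling and chamber without a shock. All mice carried the strain label B6.SJL, were 3 months old and were killed 1 h after training, and the tissue was the anterior cingulate part of the region from both hemispheres. Each sample was a homogenate of whole tissue, so a lower level cannot be told apart between fewer cells of a type and less RNA per cell. The labels do not say whether a replicate was 1 mouse or a pool, and p-values measure the spread between these samples.

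The cytosolic heat shock response is switched on when unfolded proteins release heat shock factor 1, which then binds heat shock elements upstream of chaperone genes. In the ER, the chaperone BiP holds the sensors Ire1, Perk and Atf6 silent until unfolded proteins accumulate. Ire1 splices the Xbp1 mRNA, Atf6 is cut into a transcription factor, and Perk phosphorylates eIF2alpha, which favours translation of the factor Atf4 and transcription of its targets such as Ddit3, Trib3, Asns and Chac1. In neurons the constitutive chaperones also serve folding and vesicle cycling at synapses.

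The deposited values were gene reads divided by a factor per sample, and are called scaled read counts here. Recovered gene reads ranged from 1992452 to 3565356 per sample, and the 32 genes held 0.498% to 0.605% of them. Markers of cortical excitatory neurons were present in every sample, with Slc17a7, the vesicular glutamate transporter, between 1525 and 3162 scaled read counts and the layer marker Tbr1 between 641 and 1092. Of 44 cell type marker genes, 1 had no read in at least 1 sample, the striatal receptor gene Drd2, which was between 0 and 17.5. Context control replicate 3 stood apart, with summed mature oligodendrocyte markers of 9803 against 2569 to 4805 in the other controls. Members with their highest value there by a wide margin are given with and without it.

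No gene of the set passed the test for a change after conditioning. In limma, 0 of 32 members passed an adjusted p of 0.05 in either direction, against a background of 0.0% of the 14704 genes tested. At an unadjusted p under 0.05 there were 0 members in limma, where 2.7% of all tested genes had such a p. With edgeR and with DESeq2 on recovered reads 0 members passed after adjustment, and 1 member, Hspa1a, had an unadjusted p under 0.05 in each. Of all 14704 tested genes, 386 had such a p in edgeR and 340 in DESeq2. The adjusted p of every member was 0.9998 in limma, and each member's 95% confidence interval of the log2 change included 0. In no member did the 4 conditioned samples separate completely from the 4 controls, where 1.92% of tested genes did (0.979% with every conditioned sample above every control). All 32 genes entered the test, with 2 of them, Hspb1 and Trib3, at a mean value under 10. The cytosolic and mitochondrial set lay higher in 8 members and lower in 7, with a median log2 change of 0.022. The split was 6 higher and 9 lower with quantile normalization (median -0.047), and 10 higher and 5 lower without context control replicate 3 (median 0.069), so this set had no steady direction. The ER set lay higher in 3 and lower in 14, with a median of -0.083. Over all tested genes 51.8% lay higher and 48.2% lower, and the median log2 change was 0.0095.

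**Figure D1:**
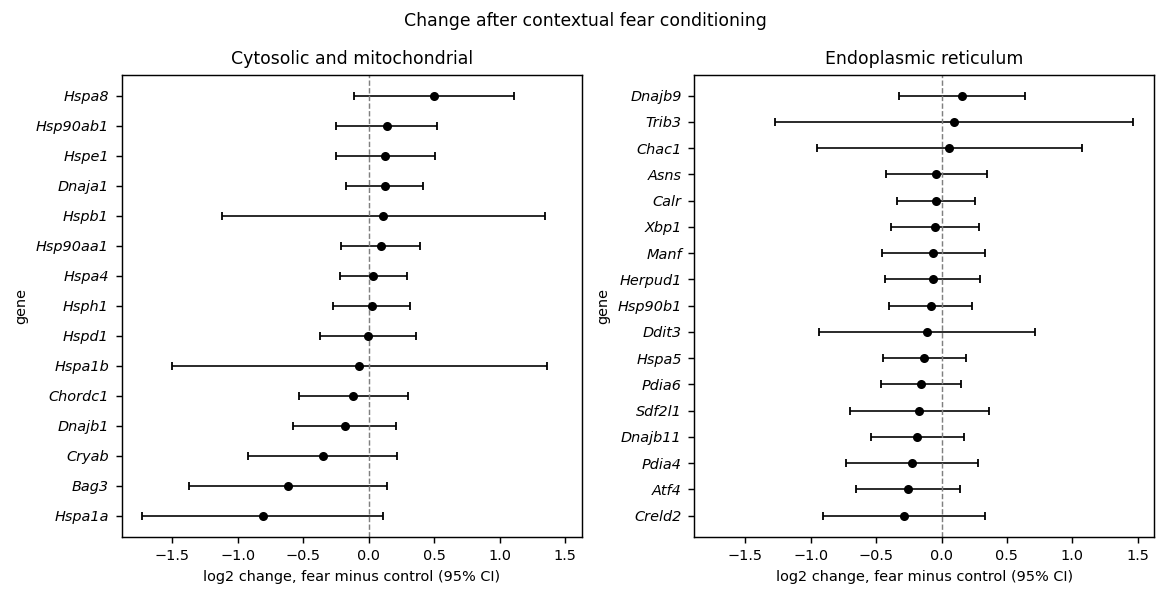
Log2 change of each gene, fear conditioning minus context control, with its 95% confidence interval from limma (4 samples per group), for the cytosolic and mitochondrial set (left) and the ER set (right). Every interval crosses 0, and the intervals are widest for Hspa1b, Trib3 and Hspb1.

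The stress-inducible cytosolic Hsp70 genes Hspa1a and Hspa1b were among the 6 lowest of the 32 genes per kilobase in controls. Hspa1a was 16.6, 23.9, 13.7 and 19.2 scaled read counts in conditioned replicates 1 to 4, against 28.2, 18.8, 77.6 and 25.8 in context control replicates 1 to 4. The control in replicate 3 was far above all 7 other samples, which overlapped between the groups. The log2 change of Hspa1a was -0.81 (95% interval -1.73 to 0.11, limma unadjusted p = 0.0797, edgeR 0.0338). Without context control replicate 3 it was -0.39. Hspa1b was 27.6, 18.6, 8.20 and 22.1 in conditioned replicates 1 to 4, against 30.7, 5.37, 66.6 and 9.66 in context control replicates 1 to 4. The highest and the lowest of the 8 Hspa1b values were both controls. Its log2 change was -0.073 (-1.51 to 1.36), and 0.52 without context control replicate 3. On recovered reads it was -0.60 in edgeR and -0.58 in DESeq2, so Hspa1b had no settled direction.

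These genes lie side by side on chromosome 17 and encode nearly the same protein. Of the 50-base windows of the Hspa1a transcript, 66.3% also occurred in transcripts of other genes of the GENCODE vM21 annotation, and 62.3% for Hspa1b, mostly in each other. The sources used here do not say how reads matching several genes were counted, so the split between the 2 genes is uncertain. Their promoters are shown because they are near copies that hold the heat shock element. Both are from RefSeq on GRCm38.p6, minus strand, from 250 bases before to 50 bases after the start site, at chr17:34972107-34972406 for Hspa1a and chr17:34959189-34959488 for Hspa1b. Capitals mark the heat shock pair GAANNTTC or TTCNNGAA, whose first base is at position -104 from the start site in both. The windows match at 296 of 300 positions.
Hspa1a: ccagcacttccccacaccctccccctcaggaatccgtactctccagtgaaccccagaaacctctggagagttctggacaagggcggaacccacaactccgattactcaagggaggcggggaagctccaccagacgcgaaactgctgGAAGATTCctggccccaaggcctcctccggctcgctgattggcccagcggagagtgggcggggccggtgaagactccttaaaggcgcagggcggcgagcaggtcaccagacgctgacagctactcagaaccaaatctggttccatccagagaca
Hspa1b: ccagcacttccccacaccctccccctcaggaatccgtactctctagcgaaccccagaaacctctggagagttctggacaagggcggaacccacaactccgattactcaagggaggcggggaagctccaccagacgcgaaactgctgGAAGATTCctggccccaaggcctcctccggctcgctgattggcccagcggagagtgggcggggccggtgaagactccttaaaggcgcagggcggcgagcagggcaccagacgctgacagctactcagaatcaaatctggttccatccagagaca

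Bag3, a co-chaperone that links Hsp70 to autophagy, followed a like pattern. It was 18.0, 30.5, 20.5 and 24.0 in conditioned replicates 1 to 4, against 25.7, 29.5, 64.5 and 32.2 in context control replicates 1 to 4, and the control in replicate 3 was again the highest of all. No window of the Bag3 transcript was shared with another gene. Its log2 change was -0.62 (-1.38 to 0.14, limma unadjusted p = 0.102), and -0.34 without context control replicate 3. Dnajb1, the J-domain partner of inducible Hsp70, was 528, 545, 355 and 368 in conditioned replicates 1 to 4, against 541, 412, 577 and 489 in context control replicates 1 to 4. Context control replicate 3 was the highest of these too, by a small margin, and conditioned replicates 3 and 4 were the lowest. The log2 change of Dnajb1 was -0.18 (-0.58 to 0.21), -0.12 without context control replicate 3 and -0.082 without conditioned replicate 3. It was 0.18 among replicates 1 and 2 alone and -0.55 among replicates 3 and 4 alone.

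In context control replicate 3 Hspa1a stood at 2.78 times its mean over the 8 samples, Hspa1b at 2.82 times, Bag3 at 2.11 times and Dnajb1 at 1.21 times. The same sample had the highest sums of mature oligodendrocyte markers (2.05 times their mean), meningeal markers (1.58 times), endothelial and mural markers (1.45 times), astrocyte markers (1.36 times) and microglial markers (1.2 times). Its cortical neuron markers were at 0.856 times their mean. The part of these cells in the chaperone values was not tested. All 8 oligodendrocyte markers lay lower in conditioned cortex, with summed levels of 2827 to 4621 in conditioned samples and 2569 to 9803 in controls, and none passed. Without context control replicate 3 only 4 of the 8 lay lower, and the highest control sum was 4805. Markers of microglia and of meninges lay lower in 5 of 5 genes each, without passing, and neuronal markers lay higher in 7 of 8. Without that control the microglial count was 4 of 5, the meningeal count 5 of 5 and the neuronal count 6 of 8. All 7 endothelial and mural markers also lay lower, with sums of 669.5 to 1016 in conditioned samples and 1006 to 1446 in controls, and none passed. Of these 7, 2 had an unadjusted p under 0.05 in limma, where 2.7% of all tested genes did. The oligodendrocyte, microglial, meningeal and neuronal lists held 0 such genes. Without that control all 7 still lay lower, with a highest control sum of 1086.

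**Figure D2:**
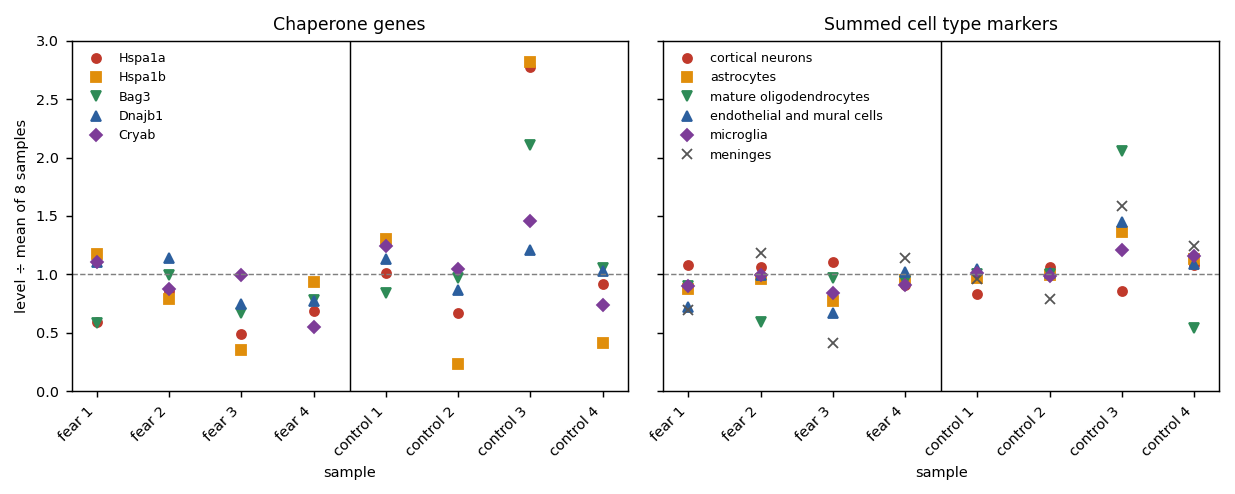
Level of 5 chaperone genes (left) and summed levels of 6 cell type marker lists (right) in each sample, divided by the mean over the 8 samples. Hspa1a, Hspa1b and Bag3 exceed 2 times their mean in context control replicate 3 and in no other sample, and the oligodendrocyte sum does so in that sample too.

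The small heat shock proteins hold unfolding clients in a soluble state. Cryab, the alpha B crystallin gene, which in brain is strongly expressed in oligodendrocytes, was 171, 135, 154 and 85.4 in conditioned replicates 1 to 4, against 194, 163, 227 and 114 in context control replicates 1 to 4. It was highest in context control replicate 3 and lowest in conditioned replicate 4, and the groups overlapped. The log2 change was -0.35 (-0.92 to 0.22), -0.14 without that conditioned sample and -0.21 without that control. Of its transcript windows, 19.0% were shared with the neighbouring gene Hspb2. Hspb1 was barely detected, at 6.90, 10.6, 5.47 and 2.88 in conditioned replicates 1 to 4 and 10.8, 8.06, 5.04 and 1.61 in context control replicates 1 to 4, from 45 reads in all. At that depth the interval of its log2 change ran over -1.12 to 1.35, around a value of 0.11.

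Hspa8, the constitutive Hsp70 that also uncoats clathrin vesicles, had the highest log2 change of the 32 genes. It was 93.9, 87.5, 91.6 and 201 in conditioned replicates 1 to 4, against 62.3, 88.6, 71.6 and 94.95 in context control replicates 1 to 4. The value of conditioned replicate 4 was above every other sample, and the other 3 conditioned samples lay within the range of the controls. Its log2 change was 0.50 (-0.12 to 1.11, limma unadjusted p = 0.102), and 0.21 without conditioned replicate 4. Of the Hspa8 windows 74.8% occurred in transcripts of 13 other annotated genes, the largest share of the set, so its count is uncertain. Per kilobase of transcript Hspa8 was 49.5 ± 23.1 in conditioned samples and 33.2 ± 6.29 in controls (SD, n = 4 each). Its ER relative Hspa5, which shares no window, was counted at 339 ± 39.0 in conditioned samples and 372 ± 54.0 in controls. The gap between these genes is uncertain because of the shared Hspa8 windows.

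The Hsp110 family members Hspa4 and Hsph1, nucleotide exchange factors for Hsp70, share no window with other genes and varied little between samples. Hspa4 was 1344, 1293, 1401 and 1475 in conditioned replicates 1 to 4, against 1296, 1289, 1398 and 1392 in context control replicates 1 to 4. Its log2 change was 0.036 with an interval of -0.22 to 0.29, the narrowest of the set. Hsph1 averaged 1787 ± 165 in conditioned samples and 1762 ± 206 in controls (SD, n = 4 each), a log2 change of 0.022 (-0.27 to 0.31). The J-domain gene Dnaja1 averaged 689 ± 72.8 in conditioned samples and 633 ± 49.7 in controls, with a log2 change of 0.12 (-0.18 to 0.42) and 28.8% of windows shared. The groups overlapped for all 3 genes.

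Of the cytosolic Hsp90 genes, Hsp90ab1, the constitutive form, had the highest level per kilobase of all 32 genes, 1242 ± 219 in conditioned samples and 1129.9 ± 215 in controls (SD, n = 4 each). It was 3403, 3349, 3465 and 2304 scaled read counts in conditioned replicates 1 to 4, against 2343, 3127, 2447 and 3473 in context control replicates 1 to 4. Conditioned replicate 4 and context control replicates 1 and 3 formed the low end, so the spread lay within the groups. Summed neuronal markers were also lowest in these samples, at 11770.0 in conditioned replicate 4, against 10841 and 11111 in the 2 controls, and at 13829 to 14354 in the remaining 5 samples. Recovered reads were highest in the same samples, at 3338920, 3565356 and 3069259 in conditioned replicate 4 and context control replicates 1 and 3. The remaining 5 samples had 1992452 to 2413605 reads. The part of the markers and of depth in the Hsp90ab1 values was not tested. The log2 change of Hsp90ab1 was 0.14 (-0.25 to 0.52), and 0.28 without conditioned replicate 4. Hsp90aa1, the more stress-responsive form, averaged 952 ± 91.4 in conditioned samples and 896 ± 118 in controls, a log2 change of 0.091 (-0.21 to 0.40), with 58.5% of windows shared with other genes. Chordc1, an Hsp90 co-chaperone, was 305, 198, 288 and 385 in conditioned replicates 1 to 4, against 323, 308, 300.5 and 311 in context control replicates 1 to 4. The controls lay close together and the conditioned samples spread to both sides of them, and the log2 change was -0.12 (-0.53 to 0.30).

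Hspd1 and Hspe1 encode the mitochondrial chaperonin Hsp60 and its lid Hsp10, and are divergent genes with a shared promoter. Hspd1 averaged 276 ± 37.5 in conditioned samples and 277 ± 39.9 in controls (SD, n = 4 each), a log2 change of -0.0071 (-0.37 to 0.36). Hspe1 averaged 176 ± 14.3 in conditioned samples and 162 ± 26.0 in controls, a log2 change of 0.13 (-0.25 to 0.50). Processed copies exist for both genes, and each shared 44.8% of its windows with other annotated genes. The Hspe1 window is shown for its run of heat shock elements. It is from RefSeq on GRCm38.p6, plus strand, at chr1:55087898-55088197, it overlaps an Hspd1 window by 285 bases, and capitals mark 3 overlapping heat shock pairs.
Hspe1: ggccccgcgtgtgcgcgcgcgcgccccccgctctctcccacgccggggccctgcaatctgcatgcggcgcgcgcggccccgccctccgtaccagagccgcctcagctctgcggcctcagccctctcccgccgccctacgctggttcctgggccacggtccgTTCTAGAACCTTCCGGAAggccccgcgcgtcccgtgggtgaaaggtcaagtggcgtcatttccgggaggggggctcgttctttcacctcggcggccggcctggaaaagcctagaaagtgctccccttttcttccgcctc

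Promoter windows were on hand for 27 of the 32 genes, all but Hsp90aa1, Hsp90ab1, Hspa8, Cryab and Manf. The heat shock pair, searched on both strands, occurred in 9 of 11 cytosolic and mitochondrial genes and in 1 of 16 ER genes, against 15.1% of all 32851 promoter windows of that length. An overlap between adjacent pairs was allowed. A gene was counted if any of its windows held the pair, while the 15.1% is a share of single windows. The same holds for the elements searched below. The 9 genes include the near copies Hspa1a and Hspa1b and the pair Hspd1 and Hspe1 with its shared promoter, so they are not separate cases.

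**Figure D3:**
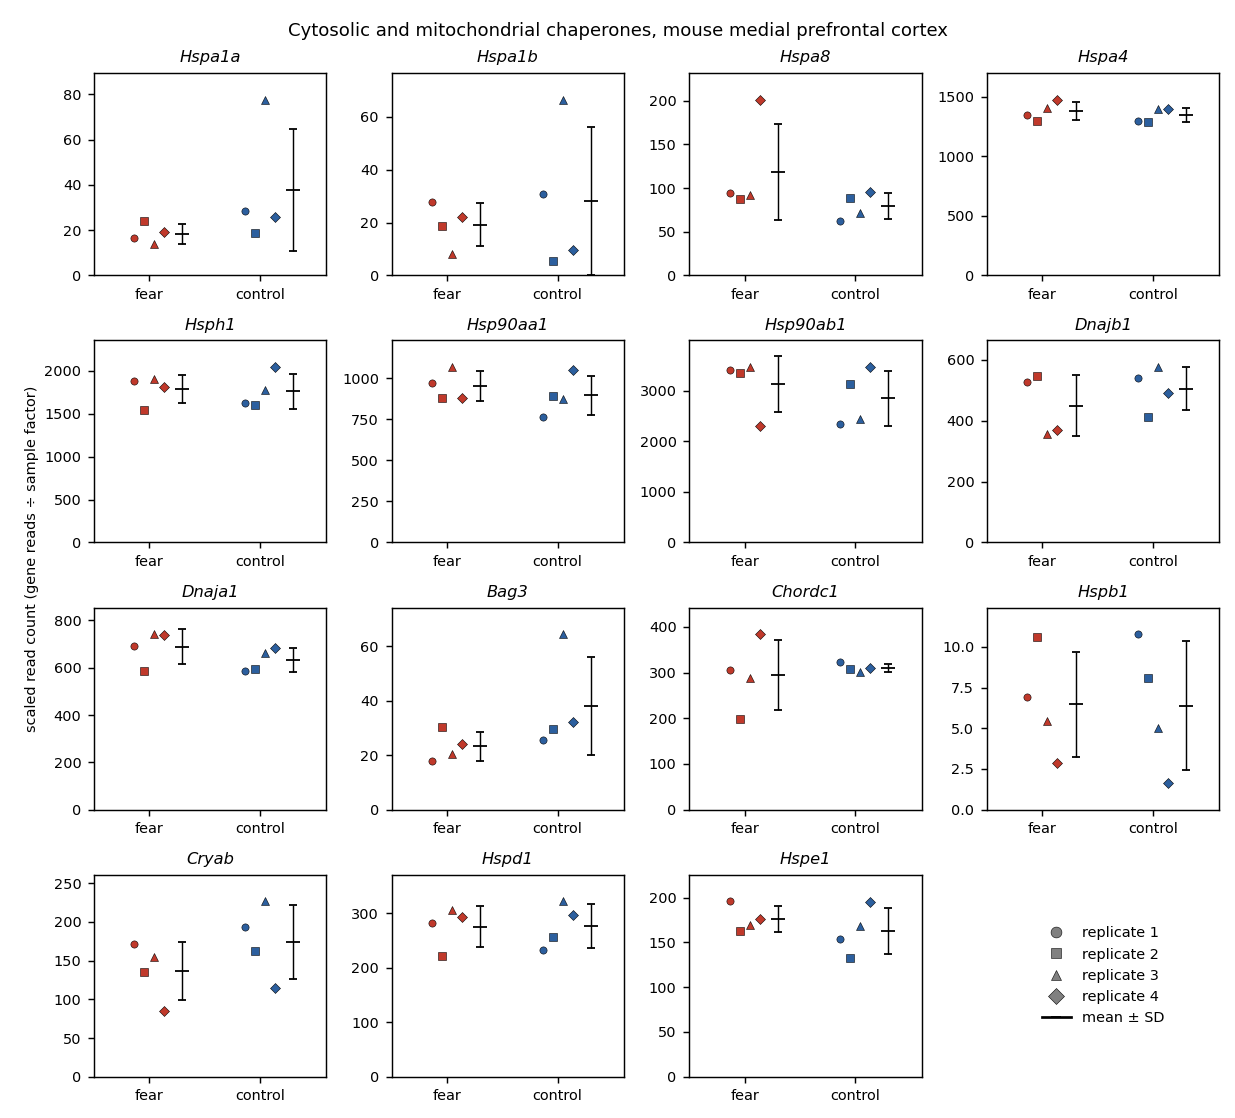
Scaled read count of each cytosolic or mitochondrial chaperone gene in every sample, fear conditioning in red and context control in blue, with marker shapes for replicate numbers and the group mean ± SD (n = 4) beside them. The groups overlap in all 15 panels, and context control replicate 3 is the high point for Hspa1a, Hspa1b and Bag3.

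Across the samples, context control replicate 3 held the highest value in 6 of the 15 genes, where it did so in 15.0% of all tested genes. Within groups the spread was smallest for Hspa4, with a pooled SD of 0.0729 on the log2 scale where counting alone gives about 0.0424. It was largest for Hspa1b, at 1.20 where counting alone gives about 0.308.

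In the ER set, the central chaperones were abundant, with lower means after conditioning that did not pass the test. Hspa5, which encodes BiP, was 1120.0, 1125, 1392 and 1344 in conditioned replicates 1 to 4, against 1148, 1281, 1434 and 1608 in context control replicates 1 to 4. Conditioned replicates 1 and 2 were the lowest of the 8 and context control replicate 4 the highest. The log2 change was -0.13 (-0.45 to 0.19), and -0.049 without that control. Hsp90b1, the ER form of Hsp90, was 1392, 1219, 1496 and 1666 in conditioned replicates 1 to 4, against 1318, 1417, 1617 and 1764 in context control replicates 1 to 4, a log2 change of -0.083 (-0.40 to 0.23). Context control replicate 4 was again the highest, and without it the log2 change was -0.012. Calr, a lectin chaperone for glycoproteins, averaged 1336 ± 131 in conditioned samples and 1378 ± 174 in controls (SD, n = 4 each), a log2 change of -0.042 (-0.34 to 0.26).

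The promoters of Hspa5 and Hsp90b1 are shown since these genes are textbook targets of the unfolded protein response and carry its element. The ER stress element was searched on both strands as CCAAT, then 9 bases of any kind, then CCACG. It occurred in 5 of 16 ER genes (Hspa5, Hsp90b1, Calr, Pdia6 and Creld2) and in 0 of 11 cytosolic and mitochondrial genes, against 0.119% of all promoter windows. The 2 windows are from RefSeq on GRCm38.p6, at chr2:34771840-34772139 on the plus strand for Hspa5 and chr10:86705395-86705694 on the minus strand for Hsp90b1, and capitals mark the element.
Hspa5: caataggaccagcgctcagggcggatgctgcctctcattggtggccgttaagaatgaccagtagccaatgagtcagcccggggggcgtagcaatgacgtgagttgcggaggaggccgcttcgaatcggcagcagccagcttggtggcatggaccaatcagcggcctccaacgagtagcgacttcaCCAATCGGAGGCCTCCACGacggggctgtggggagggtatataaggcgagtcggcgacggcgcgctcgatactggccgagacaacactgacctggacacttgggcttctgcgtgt
Hsp90b1: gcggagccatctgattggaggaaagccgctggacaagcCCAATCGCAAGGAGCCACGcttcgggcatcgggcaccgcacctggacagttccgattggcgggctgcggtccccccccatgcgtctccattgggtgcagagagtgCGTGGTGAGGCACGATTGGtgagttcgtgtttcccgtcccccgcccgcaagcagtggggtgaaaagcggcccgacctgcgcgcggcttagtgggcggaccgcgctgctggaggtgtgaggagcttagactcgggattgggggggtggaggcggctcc

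The disulfide isomerase gene Pdia4 was 232, 174, 372 and 342 in conditioned replicates 1 to 4, against 277, 302, 295 and 389 in context control replicates 1 to 4. Conditioned replicates 1 and 2 were below every control while conditioned replicates 3 and 4 were above 3 of the 4 controls. The log2 change was -0.23 (-0.73 to 0.28), and -0.02 without conditioned replicate 2. Its relative Pdia6 averaged 529 ± 62.9 in conditioned samples and 588 ± 54.1 in controls (SD, n = 4 each), a log2 change of -0.16 (-0.46 to 0.15). The BiP co-chaperone gene Dnajb9 was 202, 249, 354 and 375 in conditioned replicates 1 to 4, against 237, 207, 331 and 269 in context control replicates 1 to 4, and in both groups replicates 3 and 4 were above replicates 1 and 2. Its log2 change, 0.15 (-0.33 to 0.64), was the highest of the ER set over all 8 samples, and 0.024 without conditioned replicate 4 and 0.05 without context control replicate 2. Dnajb11, another BiP co-chaperone, averaged 293 ± 39.5 in conditioned samples and 333 ± 45.5 in controls, a log2 change of -0.19 (-0.54 to 0.17). Sdf2l1, whose product binds Dnajb11, was 33.1, 39.8, 39.6 and 36.5 in conditioned replicates 1 to 4, against 42.4, 44.3, 44.4 and 37.0 in context control replicates 1 to 4, with a log2 change of -0.17 (-0.70 to 0.36).

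Among secreted and degradation genes, Manf, a secreted neurotrophic factor induced by ER stress, averaged 241 ± 45.5 in conditioned samples and 251 ± 38.5 in controls (SD, n = 4 each), a log2 change of -0.064 (-0.46 to 0.33). Herpud1, which acts in ER-associated degradation, averaged 235 ± 39.6 in conditioned samples and 245 ± 19.4 in controls, a log2 change of -0.068 (-0.43 to 0.29). Creld2, an ER protein induced by stress, was 42.8, 46.4, 32.8 and 34.5 in conditioned replicates 1 to 4, against 68.1, 52.4, 35.3 and 40.2 in context control replicates 1 to 4. In both groups Creld2 was higher in replicates 1 and 2 than in 3 and 4. Its log2 change, -0.29 (-0.90 to 0.33), was the lowest of the ER set over all 8 samples, and -0.12 without context control replicate 1, its highest sample.

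**Figure D4:**
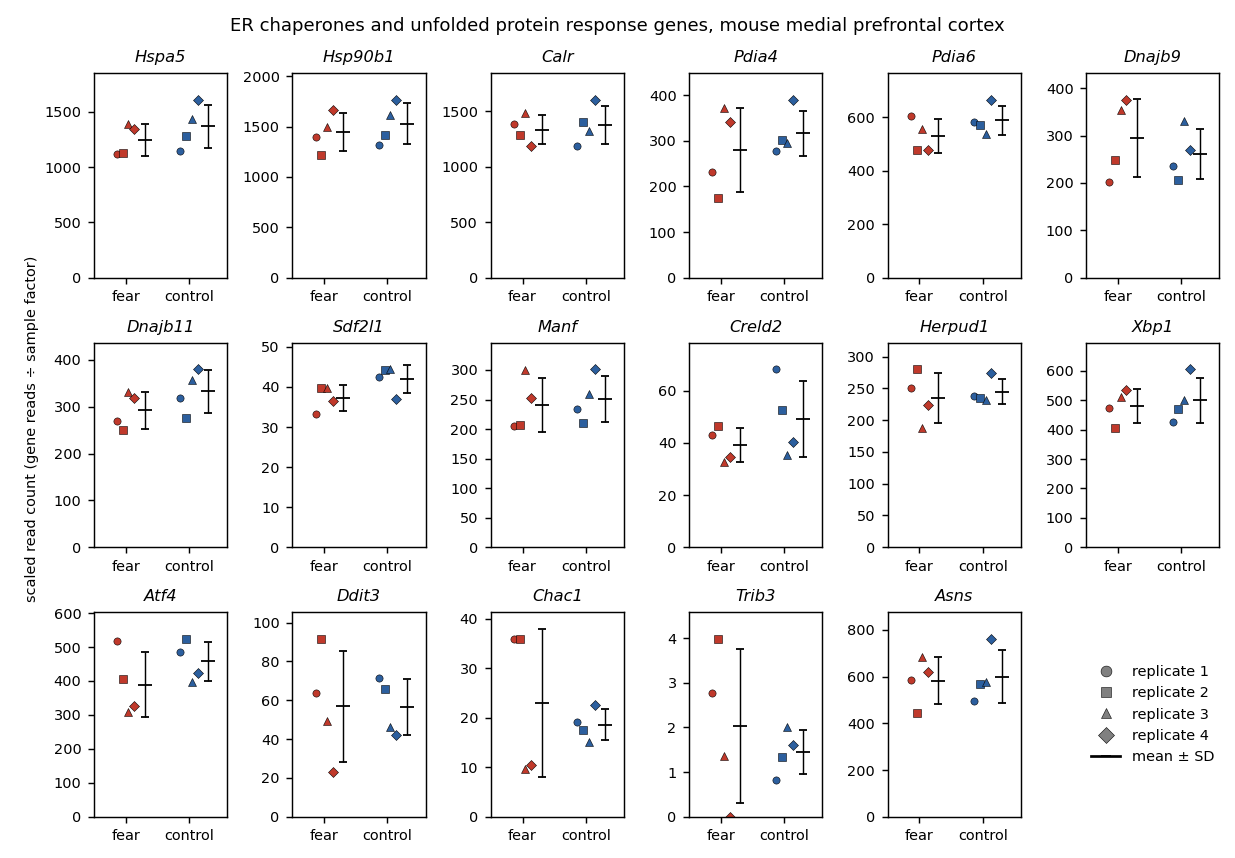
Scaled read count of each ER stress or unfolded protein response gene in every sample, fear conditioning in red and context control in blue, with marker shapes for replicate numbers and the group mean ± SD (n = 4) beside them. The groups overlap in all 17 panels, and for Chac1 the conditioned samples lie on both sides of the controls.

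The transcription factor Xbp1 averaged 481 ± 56.6 in conditioned samples and 500.4 ± 76.5 in controls (SD, n = 4 each), a log2 change of -0.052 (-0.39 to 0.28). Counts are per gene, so spliced and unspliced Xbp1 mRNA were not told apart. Atf4 was 518, 406, 307 and 327 in conditioned replicates 1 to 4, against 487, 524, 396 and 423 in context control replicates 1 to 4. Conditioned replicates 3 and 4 were below every control and conditioned replicate 1 was near the highest control. Its log2 change was -0.25 (-0.65 to 0.14, limma unadjusted p = 0.191). Atf4 is controlled largely at translation, which these counts do not measure.

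Among the targets of Atf4, the conditioned samples of Chac1 fell into a high and a low pair. Chac1, which encodes a glutathione-degrading enzyme, was 35.9, 35.8, 9.56 and 10.6 in conditioned replicates 1 to 4, against 19.1, 17.5, 15.1 and 22.5 in context control replicates 1 to 4. Conditioned replicates 1 and 2 were above every control and conditioned replicates 3 and 4 were below every control. The log2 change was 0.059 (-0.95 to 1.07) from 136 reads in all, and 0.29 in edgeR and 0.29 in DESeq2 on recovered reads. Ddit3, the pro-apoptotic factor CHOP, was 63.5, 91.5, 49.2 and 23.0 in conditioned replicates 1 to 4, against 71.4, 65.8, 46.4 and 41.8 in context control replicates 1 to 4. Its highest and lowest values were conditioned replicates 2 and 4, and in both groups replicates 1 and 2 were above replicates 3 and 4. The log2 change of Ddit3 was -0.11 (-0.94 to 0.71), and 0.26 without conditioned replicate 4. Trib3, a pseudokinase induced by ER stress, was near the floor, at 2.76, 3.98, 1.37 and 0 in conditioned replicates 1 to 4 and 0.831, 1.34, 2.02 and 1.61 in context control replicates 1 to 4, from 11 reads in all. The 0 in conditioned replicate 4 allows a value up to 2.88, at 3 reads, for counting error alone, so no order among the Trib3 samples can be read. Asns, asparagine synthetase, was 586, 443, 686 and 619 in conditioned replicates 1 to 4, against 494, 567, 576 and 761 in context control replicates 1 to 4. It did not share the split of Chac1, since conditioned replicate 2 was its lowest sample, and its log2 change was -0.039 (-0.42 to 0.34).

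Promoters of Chac1 and Asns are shown because they hold the Atf4-type element while their values followed different orders across samples. The element was searched as TGATGNAA on both strands, and occurred in 4 of 16 ER genes (Chac1, Trib3, Asns and Herpud1) and in 0 of 11 cytosolic and mitochondrial genes, against 3.97% of all promoter windows. The windows are from RefSeq on GRCm38.p6, at chr2:119350992-119351291 on the plus strand for Chac1 and chr6:7693160-7693459 on the minus strand for Asns, and capitals mark the element. In Asns it overlaps a heat shock pair, which is not marked.
Chac1: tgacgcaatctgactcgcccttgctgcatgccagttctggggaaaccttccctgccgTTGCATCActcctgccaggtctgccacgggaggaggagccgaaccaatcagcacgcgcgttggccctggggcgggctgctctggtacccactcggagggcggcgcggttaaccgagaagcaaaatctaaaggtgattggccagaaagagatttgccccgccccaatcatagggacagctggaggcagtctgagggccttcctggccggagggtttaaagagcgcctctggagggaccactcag
Asns: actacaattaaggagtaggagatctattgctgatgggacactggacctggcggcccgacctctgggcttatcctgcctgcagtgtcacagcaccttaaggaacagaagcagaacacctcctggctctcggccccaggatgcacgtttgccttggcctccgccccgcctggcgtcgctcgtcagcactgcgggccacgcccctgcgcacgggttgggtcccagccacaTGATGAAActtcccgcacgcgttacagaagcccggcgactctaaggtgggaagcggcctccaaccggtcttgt

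Over the 17 ER genes the lowest of the 8 values was a conditioned sample in 17 genes, where this was so in 59.8% of all tested genes with a single lowest value. It was conditioned replicate 2 in 5 genes and each of the other conditioned replicates in 4. For Trib3 it was the 0 of conditioned replicate 4, from 11 reads in all, so its place in this count is uncertain. The same 8 samples underlie every gene, so the 17 genes are not separate observations. This count, like those of highest samples in both sets, was not planned. The highest value was context control replicate 4 in 9 of the 17 genes, where this was so in 10.4% of all tested genes. That library was the shallowest, with 1992452 reads, and had the lowest oligodendrocyte marker sum (2569), and their part in the result was not tested. Without context control replicate 4 the ER set lay higher in 7 and lower in 10, with a median log2 change of -0.013, against -0.083 with it. Without context control replicate 3 it lay higher in 2 and lower in 15.

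**Figure D5:**
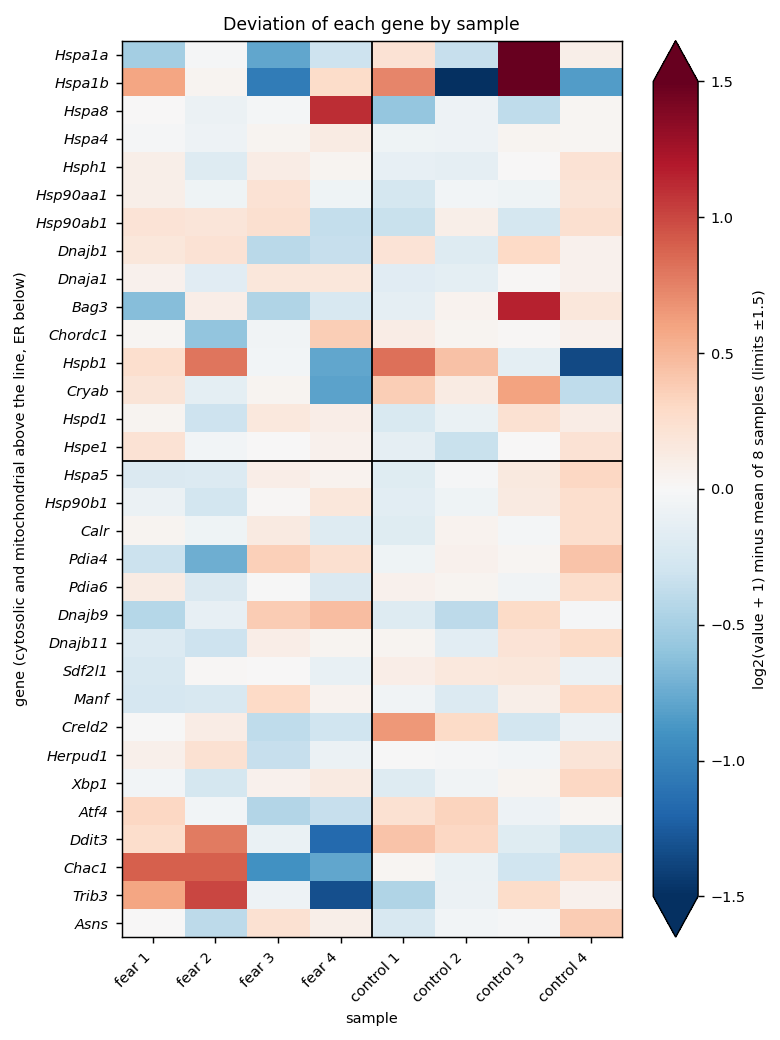
Log2(value + 1) of each of the 32 genes minus its mean over the 8 samples, by sample, in colours limited to ±1.5, with fear conditioning left of the vertical line. Hspa1a, Hspa1b and Bag3 are high in context control replicate 3, Hspa8 in conditioned replicate 4, and Chac1 in conditioned replicates 1 and 2. Trib3 rests on 11 reads.

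Ranked by control level per kilobase, Hsp90ab1 (1242 ± 219 in conditioned samples and 1129.9 ± 215 in controls, SD, n = 4 each) stood above Calr (612 ± 59.8 in conditioned samples and 631 ± 79.7 in controls). Hsp90b1 came next, at 511 ± 66.3 in conditioned samples and 541 ± 70.8 in controls, then Hsph1 at 469.9 ± 43.3 in conditioned samples and 464 ± 54.1 in controls. In controls the mean ± SD ranges of Calr and Hsp90b1 overlapped, and so did those of Hsp90b1 and Hsph1, while those of Hsp90ab1 and Calr did not. Hspa5, Asns, Hspa4, Hsp90aa1, Pdia6, Atf4, Xbp1 and Hspe1 followed, each overlapping the next, down to 227 ± 18.5 in conditioned samples and 209.9 ± 33.6 in controls for Hspe1. Dnajb1, Cryab, Dnajb11, Pdia4, Herpud1, Hspd1, Dnaja1, Manf and Dnajb9 lay below these, down to 119.9 ± 33.7 in conditioned samples and 106 ± 21.6 in controls for Dnajb9. Ddit3, Chordc1, Sdf2l1, Creld2 and Hspa8 stood lower again. At the low end stood Trib3 at 1.0 ± 0.850 in conditioned samples and 0.716 ± 0.245 in controls, and Hspb1 at 6.95 ± 3.47 in conditioned samples and 6.86 ± 4.25 in controls. Just above them, Bag3 was 9.07 ± 2.12 in conditioned samples and 14.8 ± 6.98 in controls, Hspa1a was 6.18 ± 1.46 in conditioned samples and 12.7 ± 9.10 in controls, and Chac1 was 14.0 ± 9.10 in conditioned samples and 11.3 ± 1.90 in controls. Hspa1b, between Chac1 and Hspb1 in controls, was 6.82 ± 2.92 in conditioned samples and 10.02 ± 9.97 in controls. The ranges of Bag3, Hspa1a, Chac1 and Hspa1b overlapped in controls, and that of Hspa1b also reached Trib3, which had the lowest mean. Lengths are those of the longest GENCODE vM21 coding transcript. Some genes share at least 25% of their windows with other genes, so their places in this order are uncertain. They are Hspa8, Hspa1a, Hspa1b, Hsp90aa1, Hspb1, Hspe1, Hspd1 and Dnaja1.

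The other 83 genes of these pathways, in 5 lists, also held none that passed, with 36 higher and 47 lower. At an unadjusted p under 0.05 in limma there were 3, where 2.7% of all tested genes had such a p. Heat shock factors and co-chaperones lay higher in 10 of 27 and lower in 17, with a median log2 change of -0.028. The collagen chaperone gene Serpinh1 averaged 58.9 ± 20.9 in conditioned samples and 84.7 ± 8.24 in controls (SD, n = 4 each), with conditioned replicate 2 among the controls and the other 3 below them, and a log2 change of -0.57 (-1.12 to -0.016). Summed meningeal markers were 234 to 667 in conditioned samples and 447 to 894 in controls (702 at most without context control replicate 3), and their part in this value was not tested. The Hsp90 co-chaperone gene Ptges3 had a log2 change of -0.22 (-0.58 to 0.13). Subunits of the cytosolic chaperonin TRiC lay higher in 6 of 8, with a median of 0.05, and the log2 change was 0.10 (-0.28 to 0.48) for Cct8 and 0.053 (-0.27 to 0.37) for Cct5. The stress sensors and transducers lay higher in 7 of 11, with a median of 0.0041. Among these, Ern1, which encodes Ire1, was 34.5, 37.1, 27.3 and 13.4 in conditioned replicates 1 to 4, against 20.8, 8.06, 27.2 and 9.66 in context control replicates 1 to 4, a log2 change of 0.81 (-0.19 to 1.81). The groups overlapped, with context control replicates 1 and 3 among the conditioned samples. The amino acid sensor gene Eif2ak4 was 87.0, 62.3, 88.8 and 86.3 in conditioned replicates 1 to 4, against 72.3, 65.8, 55.5 and 48.3 in context control replicates 1 to 4, a log2 change of 0.42 (-0.081 to 0.92). Here conditioned replicate 2 lay among the controls and the other conditioned samples above them.

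Genes of ER folding and degradation lay higher in 11 of 21 and lower in 10, with a median log2 change of 0.016. Cdnf, a relative of Manf, was 2.76, 6.63, 6.83 and 6.72 in conditioned replicates 1 to 4, against 0.831, 0, 11.1 and 1.61 in context control replicates 1 to 4, a few reads per sample, with context control replicate 3 the highest of all. The ER oxidase gene Ero1lb had a log2 change of 0.25 (-0.18 to 0.69). Targets of the integrated stress response lay higher in 2 of 16 and lower in 14, with a median of -0.11, and none passed. Atf5, a stress-induced transcription factor, was 58.0, 43.8, 27.3 and 15.4 in conditioned replicates 1 to 4, against 56.5, 81.9, 71.6 and 64.4 in context control replicates 1 to 4. Conditioned replicates 2, 3 and 4 were below every control, and conditioned replicate 1 lay just above the lowest control. Its log2 change was -1.05 (-1.85 to -0.25, limma unadjusted p = 0.0139, adjusted p = 0.9998). The mitochondrial folate enzyme gene Mthfd2 was 20.7, 15.9, 32.8 and 31.7 in conditioned replicates 1 to 4, against 41.5, 38.9, 47.4 and 40.2 in context control replicates 1 to 4. Every conditioned sample was below every control for Mthfd2 and for Psat1, a serine synthesis gene named after its values were seen. Thus 2 of 16 genes of this list separated in this direction, where 0.939% of tested genes did. They were the only 2 of all 83 other pathway genes to separate in either direction, where 1.92% of tested genes did. Psat1 was 492, 487, 521 and 508 in conditioned replicates 1 to 4, against 548, 528, 813 and 650.2 in context control replicates 1 to 4. The log2 change of Mthfd2 was -0.77 (-1.43 to -0.10), and that of Psat1 was -0.32 (-0.66 to 0.021). Serine synthesis genes are strongly expressed in astrocytes, whose 6 markers all lay lower, with sums of 4343 to 5439.7 in conditioned samples and 5472 to 7687 in controls (6379.6 at most without context control replicate 3). None of the 6 passed, while 2 had an unadjusted p under 0.05 in limma, where 2.7% of all tested genes did. In 1 of the 6 every conditioned sample was below every control, as in 0.939% of tested genes. The part of the astrocyte markers in the Mthfd2 and Psat1 values was not tested.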

How the data were processed

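The members and lists were chosen with earlier results of these data known. Per the submitters' processing notes TopHat and HTSeq were used, without versions, and the build named is hg19, a human build. The deposited file is named FPKM, but in each column 100% of values above 0 were whole multiples of a step (within 0.01 of a read), so the deposited values are a scaled count signal, not length corrected. The step ranged from 0.831 to 1.61, and step times DESeq2 size factor varied between 0.992 and 1.01 of its mean. The annotation, the use of strand and the treatment of reads matching several genes are not stated in those notes or the labels. Reads of overlapping or antisense genes therefore cannot be told apart.

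The test used genes whose mean value reached 1, on log2(value + 1) in limma 3.58.1 under R 4.3.3 (variance trend, two-sided, Benjamini-Hochberg over 14704 genes). This scale understates changes of low genes. As alternatives, recovered reads went into edgeR 4.0.16 (quasi-likelihood) and DESeq2 1.42.0, and the fits were tested on simulated data for 4 against 4 samples, where of 200 genes changed 4-fold among 14557, limma called 199 (8 false calls), edgeR 199 (7) and DESeq2 198 (13). The simulated samples were independent, every gene had the same dispersion, and only genes above a minimum mean were changed. The simulation therefore does not measure the power for smaller changes, for low genes or for genes that spread more. Libraries of a group differed by more than sampling noise (chi-square per degree of freedom 2.5 to 23.6). Named genes were all 32 members and, of each further list, the 2 with the smallest p. Shared windows were counted over 50 bases on both strands of GENCODE vM21 transcripts. Counting intervals and floors cover counting error only.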

Additional observations from a re-analysis of the deposited data

Results flagged for a closer look

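In 84 groups of 4 samples (42 named genes), 9 had a sample far from the other 3. Chance gives about 1 in 20 groups if values are normally distributed, while these were unlogged and some rest on a few reads. The named genes outside the member set were picked by smallest p, so for them this share is only a rough guide. Hspa1a read 77.6 in context control replicate 3, against 18.8 to 28.2 in the other controls, and Bag3 read 64.5 there, against 25.7 to 32.2. Hspa8 read 201 in conditioned replicate 4, against 87.5 to 93.9 in the other conditioned samples. In the same sample Hsp90ab1 read 2304, against 3349 to 3465. Herpud1 read 274 in context control replicate 4, against 232 to 238 in the other controls.

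Among the other pathway genes, Serpinh1 read 90.2 in conditioned replicate 2, against 47.8 to 49.7, and Eif2ak4 read 62.3 in the same sample, against 86.3 to 88.8. Cdnf read 2.76 in conditioned replicate 1, against 6.63 to 6.83, and 11.1 in context control replicate 3, against 0 to 1.61.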

How the results depend on the processing

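No gene in the table was called in limma (397 at an unadjusted p under 0.05), edgeR (386) or DESeq2 (340), nor with a pseudocount of 0.1, no filter, a mean of at least 10 or quantile normalization. Leaving out 1 sample gave 0 to 1 called genes (1 without conditioned replicate 4, with that group at 3 samples). In comparisons chosen after seeing the data, replicates 1 and 2 only gave 8 called genes and replicates 3 and 4 only gave 0. No member was called under any of these, nor in the block fits. With the replicate number as a block there were 0 calls, with medians of 0.022 and -0.083 for the cytosolic and the ER set. Same-numbered samples correlated in their deviations from the group means by 0.228, 0.249, 0.069 and 0.113, and conditioned replicate 4 correlated best with context control replicate 3 (0.478), so the numbers were not taken as pairs. Replicates 1 and 2 deviated together across the groups, as did 3 and 4. There were 8 correlations of 0.069 to 0.478 within these sets and 8 of -0.38 to -0.094 between them. The sets were chosen from these same correlations. Deviations within a group sum to 0, so positive correlations with some of its samples require negative ones with others. With the set as a block, added after seeing the data, 0 genes were called (870 at an unadjusted p under 0.05, 1 of them a member). The cytosolic median ranged between -0.12 and 0.081 and the ER median between -0.15 and -0.013 over the alternatives. The lowest cytosolic median was without the 8 members that share at least 25% of their windows, an alternative added after seeing the data. Of 753 values of the 42 named genes under the alternatives, these added fits included, 55 in 19 genes had the opposite sign. Quantile normalization turned Hspa1b (0.0058), Hsp90ab1 (-0.0062), Hsph1 (-0.085), Hspa4 (-0.053) and Cct5 (-0.0042), recovered reads turned Hspb1 (-0.084 in edgeR, -0.057 in DESeq2), and the pseudocount of 0.1 turned Trib3 (-0.38). In replicates 1 and 2 only, the sign was opposite for Hspa1b (0.74), Dnajb1 (0.18), Hspb1 (-0.11), Hspd1 (0.030), Ddit3 (0.15), Calr (0.048) and Herpud1 (0.16). In replicates 3 and 4 only, it was opposite for Hsp90ab1 (-0.045), Hsph1 (-0.037), Hspe1 (-0.070), Chordc1 (0.12), Pdia4 (0.071), Trib3 (-0.87), Chac1 (-0.82) and Cct5 (-0.037). The cause was not tested. Leaving out 1 sample gave ranges of the log2 change of -0.61 to 0.52 for Hspa1b, -0.021 to 0.097 for Hsph1, -0.32 to 0.41 for Hspb1, -0.086 to 0.094 for Hspd1, -0.26 to 0.060 for Chordc1, -0.39 to 0.26 for Ddit3, -0.13 to 0.043 for Xbp1, -0.11 to 0.034 for Calr, -0.16 to 0.037 for Herpud1, -0.18 to 0.026 for Manf, -0.22 to 0.55 for Trib3, -0.13 to 0.087 for Asns, -0.23 to 0.37 for Chac1 and -0.00085 to 0.15 for Cct5. The median reach of a member's unadjusted 95% interval to either side was 0.40 on the log2 scale, and 0.62 over all genes, and the adjusted test needs larger changes than that interval shows.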
